A study of Mus musculus with 36 samples.

Results

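The genes described here, in the kidney cortex of diabetic and nondiabetic mice, encode enzymes of the route from tryptophan by way of kynurenine to the coenzyme NAD. They also include Aadat and Acmsd, which lead away from NAD, and Nampt, the rate-limiting enzyme of NAD salvage. They are a named list of 9 genes (Kynu, Kmo, Haao, Qprt, Acmsd, Afmid, Aadat, Nadsyn1 and Nampt) out of a count table of 15730 genes. They were chosen by their measured levels in diabetic against nondiabetic vehicle mice, where Kynu was high and the rest of the pathway was not. Of the 9 members, 8 were in the table and all 8 passed the filter on low counts. Afmid, the formamidase that releases kynurenine, was not analysed here.

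In the kynurenine pathway the indole ring of tryptophan is opened by tryptophan or indoleamine dioxygenase, and Afmid releases kynurenine from the product. Kynurenine is then used by competing enzymes. Aadat, an aminotransferase, makes kynurenic acid from it, Kmo hydroxylates it to 3-hydroxykynurenine in the outer mitochondrial membrane, and Kynu, a vitamin B6-dependent hydrolase, cleaves 3-hydroxykynurenine to 3-hydroxyanthranilate and kynurenine itself to anthranilate. Haao opens the ring of 3-hydroxyanthranilate. The product either closes spontaneously to quinolinate, which Qprt commits to NAD, or is decarboxylated by Acmsd and lost to NAD synthesis. Nadsyn1 carries out the last amidation to NAD, and Nampt recycles nicotinamide. In the kidney much of this de novo route is found in the proximal tubule.

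RNA was taken from kidney cortex of male ApoE-/- mice on a C57BL/6 background, animals that lack apolipoprotein E and are prone to atherosclerosis, so both the diabetic and the nondiabetic groups carry this deletion. Streptozotocin, a beta-cell toxin, was given to 6-week-old animals as 5 daily injections of 55 mg/kg to make the diabetic groups. The diabetic groups received LXA4 (5 µg/kg), benzo-LXA4 (1.7 µg/kg) or 0.1% ethanol as vehicle, injected 2 times a week, and the nondiabetic groups received the same 3 treatments. The sample labels call these treatments lipoxin, benzo-lipoxin and vehicle. LXA4 is a lipid mediator of the resolution of inflammation, and benzo-LXA4 is a synthetic analog with a benzene ring. The protocol describes dosing from week 10 to week 16 in an intervention arm, without stating that these libraries belong to it. Each of the 6 groups had 6 libraries. Whether the replicates of a group are different animals is not stated, so p-values measure only the spread between libraries, part of which could be technical.

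Depth ran from 8896193 to 43305005 counts per library. The share of counts in 32 ribosomal and other structural RNA genes was 56.9% in diabetic LXA4 replicate 6 and 17.7% in nondiabetic vehicle replicate 3, and at most 6.81% in the other 34 libraries. Member calls and marker counts that changed without these 2 libraries, and sums whose extremes they set, are given both ways. As a check of the tissue, all 20 proximal tubule markers were measured, and their summed level was 16620 to 24273 CPM (counts scaled to library size by TMM; from 17381 CPM without replicate 6) in diabetic LXA4 libraries against 26945 to 31194 CPM in nondiabetic LXA4 libraries. The sums were 17254 to 23876 CPM in diabetic and 21823 to 28062 CPM in nondiabetic benzo-LXA4 libraries, and 15373 to 23983 CPM in diabetic and 20318 to 31431 CPM in nondiabetic vehicle libraries. In bulk tissue, fewer cells of a type and less RNA per cell cannot be told apart.

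Per unit of transcript length, Kynu was the lowest of the 8 measured members and Aadat the highest. Over the 36 libraries the median level of Aadat was 82.5 RPKM (CPM divided by exon length in kilobases), followed by Acmsd at 29.2, Haao at 21.6, Nampt at 21.6, Kmo at 19.6, Qprt at 14.0, Nadsyn1 at 10.9 and Kynu at 3.92 RPKM. Kynu also had the widest relative range among the 8 once the 2 libraries were left out, from 1.22 to 18.9 RPKM, whereas Qprt lay between 10.2 and 19.7 RPKM and Nadsyn1 between 6.51 and 13.3 RPKM in those 34 libraries.

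Kynu (GRCm38 chr2:43555329-43682715, plus strand) was highest in diabetic vehicle mice and had a higher mean in diabetic than in nondiabetic mice under each treatment. Among diabetic vehicle libraries the lowest, median and highest values were 31.5, 68.5 and 116 CPM, against 8.52, 9.59 and 23.3 CPM in nondiabetic vehicle libraries. The 6 diabetic libraries split into 3 at 101 to 116 CPM (replicates 3, 4 and 5) and 3 at 31.5 to 35.6 CPM, and none overlapped the nondiabetic range. The log2 change was 2.44. This contrast chose the gene, so the value is a description and is not tested.

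In mice given LXA4, Kynu was at 8.74, 43.6 and 81.8 CPM (lowest, median, highest) in diabetic libraries against 7.49, 12.3 and 17.5 CPM in nondiabetic libraries. The lowest diabetic value is replicate 6, the library rich in structural RNA, where Kynu rests on 37 counts. The other 5 diabetic libraries, from 34.3 CPM upwards, all lay above the nondiabetic range. The log2 change was 1.92 (95% interval 1.09 to 2.75, edgeR adjusted p = 0.00114), and without the 2 libraries it was 2.10 (adjusted p = 0.000177).

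In mice given benzo-LXA4, Kynu was at 21.6, 31.2 and 55.2 CPM in diabetic libraries against 9.90, 16.4 and 31.4 CPM in nondiabetic libraries. All 6 diabetic libraries lay above the nondiabetic mean of 18.6 CPM, but the ranges overlapped. The log2 change of 0.82 (95% interval 0.02 to 1.63) did not pass the test (edgeR adjusted p = 0.280), also without the 2 libraries (0.81, adjusted p = 0.138).

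Over both compounds together, Kynu rose in diabetic mice by a log2 change of 1.37 (SE 0.284, 95% interval 0.79 to 1.95, edgeR adjusted p = 0.000543). Vehicle libraries enter this contrast only through the estimate of spread that the fit shares, and a fit of the 4 compound groups alone, with no vehicle library, gave 1.37 (adjusted p = 0.000443). Of the 12 diabetic libraries, 11 lay above the nondiabetic mean. In each of 36 fits that left out 1 library the call held, with changes of 1.25 to 1.48.

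**Figure D1:**
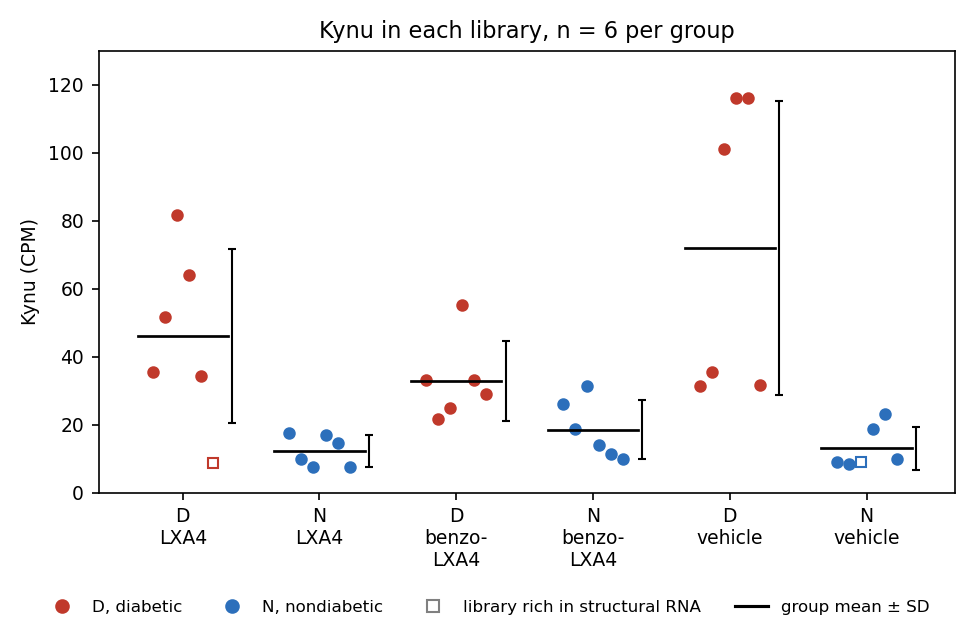
Kynu in CPM (y axis, linear, from 0) in each of the 36 libraries by group (x axis, D diabetic, N nondiabetic), with the group mean and SD. Diabetic vehicle libraries split between 31.5 to 35.6 and 101 to 116 CPM, and the open square in diabetic LXA4 is replicate 6 at 8.74 CPM.

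Ordered by mean, Kynu was at 72.1 ± 43.3 CPM in diabetic vehicle, 46.0 ± 25.6 in diabetic LXA4, 32.9 ± 11.9 in diabetic benzo-LXA4, 18.6 ± 8.60 in nondiabetic benzo-LXA4, 13.2 ± 6.33 in nondiabetic vehicle and 12.4 ± 4.61 CPM in nondiabetic LXA4 mice (SD, n = 6 each). The ranges of each pair of neighbours in this order overlapped.

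The diabetic vehicle libraries with the highest Kynu were also those with the highest summed level of tubular injury markers. The summed level of 10 measured injury markers (of 11 listed, among them Havcr1, Lcn2, Spp1 and Vcam1) was 994, 847 and 1087 CPM in replicates 3, 4 and 5 and 553, 521 and 516 CPM in replicates 1, 2 and 6. Spp1 alone was at 265 to 790 CPM in the diabetic vehicle libraries, so these sums are largely the level of that gene. They do not show that each of the 10 markers followed Kynu. Summed proximal tubule markers in the same libraries were 18583, 16675 and 15373 CPM in replicates 3, 4 and 5 and 23522, 23983 and 20798 CPM in replicates 1, 2 and 6. Over all treatments the injury sums were 259 to 1087 CPM in diabetic libraries (from 516 CPM without replicate 6 of LXA4) and 342 to 567 CPM in nondiabetic libraries. Diabetic LXA4 replicate 6 had both the lowest injury sum, 259 CPM, and the lowest Kynu of the diabetic libraries. Replicate 3 had the highest of both among diabetic LXA4 libraries, 873 CPM for injury markers and 81.8 CPM for Kynu. The diabetic benzo-LXA4 libraries did not follow this order. There the highest Kynu, 55.2 CPM in replicate 4, stood beside an injury sum of 601 CPM. The highest injury sum, 894 CPM in replicate 5, stood beside Kynu at 33.2 CPM. Macrophage and dendritic cell markers, 14 of 15 measured, summed to 176 to 353 CPM in diabetic and 179 to 245 CPM in nondiabetic libraries. The 353 CPM are those of diabetic LXA4 replicate 6, and without it the diabetic sums ran up to 286 CPM. Of the T, NK and B cell markers 5 of 11 were measured, at 4.01 to 8.55 CPM in diabetic and 2.97 to 5.08 CPM in nondiabetic libraries, or 4.24 to 8.55 and 3.42 to 5.08 CPM without the 2 libraries rich in structural RNA. The part of these cells and of tubular injury in the Kynu difference was not tested.

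Acmsd (chr1:127729413-127767978, plus strand), which diverts the pathway away from NAD, fell in diabetic mice by more than the other members over both compounds. In LXA4 mice it was at 29.5, 52.6 and 75.7 CPM (lowest, median, highest) in diabetic libraries against 105, 146 and 196 CPM in nondiabetic libraries. In benzo-LXA4 mice it was at 42.0, 69.4 and 85.8 CPM in diabetic libraries against 76.8, 120 and 154 CPM in nondiabetic libraries. The LXA4 groups did not overlap, and the benzo-LXA4 groups overlapped between the highest diabetic and the lowest nondiabetic library. The log2 change was -1.48 (95% interval -1.93 to -1.04, edgeR adjusted p = 2.11e-05) with LXA4, -0.85 (-1.28 to -0.41, adjusted p = 0.0182) with benzo-LXA4 and -1.17 (-1.48 to -0.85, adjusted p = 1.5e-06) over both. The benzo-LXA4 call was lost without diabetic replicate 5 (-0.75, adjusted p = 0.062) or 6 (-0.76, adjusted p = 0.0584). In vehicle mice, where the value is a description, the change was -0.38, with 40.1, 82.6 and 101 CPM in diabetic libraries against 75.5, 99.1 and 134 CPM in nondiabetic ones. An antisense gene, 2900009J06Rik, shares 94 exon bases with Acmsd and had 3245 counts over all libraries against 95157 for Acmsd, and the strand setting of the counting is not given in the sources used here.

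Aadat (chr8:60505932-60545677, plus strand), the aminotransferase of the kynurenic acid branch, fell too. It was at 96.1, 151 and 191 CPM in diabetic LXA4 libraries against 152, 238 and 289 CPM in nondiabetic LXA4 libraries, and at 119, 152 and 222 CPM in diabetic benzo-LXA4 libraries against 156, 220 and 308 CPM in nondiabetic benzo-LXA4 libraries. The ranges overlapped under both compounds, with all 12 diabetic libraries below the nondiabetic mean of 227 CPM. The log2 change was -0.56 over both compounds (95% interval -0.83 to -0.29, edgeR adjusted p = 0.00175), -0.66 with LXA4 (adjusted p = 0.0092) and -0.46 with benzo-LXA4 (adjusted p = 0.179). The value in vehicle mice was -0.54.

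Kmo (chr1:175620381-175662116, plus strand), the hydroxylase one step before Kynu, moved in the opposite direction to Kynu. It was at 25.0, 79.7 and 92.3 CPM in diabetic LXA4 libraries against 109, 117 and 124 CPM in nondiabetic LXA4 libraries, with no overlap also without the 25.0 CPM of diabetic replicate 6, since the next diabetic value was 76.7 CPM. In benzo-LXA4 mice it was at 67.0, 89.1 and 97.1 CPM in diabetic libraries against 77.6, 103 and 118 CPM in nondiabetic libraries, which overlapped. The log2 change was -0.66 with LXA4 (95% interval -1.01 to -0.31, edgeR adjusted p = 0.00596), -0.26 with benzo-LXA4 (adjusted p = 0.478) and -0.46 over both (-0.70 to -0.21, adjusted p = 0.00494). A fit of the 2 LXA4 groups alone gave -0.65 with adjusted p = 0.0655. In vehicle mice the value was -0.26.

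Qprt (chr7:127107114-127122226, minus strand), which commits quinolinate to NAD, had the smallest change of the 4 members that fell. Its values were 27.1, 34.1 and 37.3 CPM in diabetic LXA4 libraries against 42.1, 44.3 and 47.3 CPM in nondiabetic LXA4 libraries, with no overlap. In benzo-LXA4 mice they were 33.5, 35.0 and 36.8 CPM in diabetic against 33.7, 36.9 and 48.5 CPM in nondiabetic libraries, and the ranges overlapped. The log2 change was -0.42 with LXA4 (edgeR adjusted p = 0.00141), -0.17 with benzo-LXA4 (adjusted p = 0.348) and -0.30 over both (95% interval -0.43 to -0.16, adjusted p = 0.000942). The value in vehicle mice was -0.18.

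Aadat, Kmo and Qprt, 3 of the 4 members that fell over both compounds, are shown by their promoters, the 250 bases before and 50 after the RefSeq start (GRCm38.p6), since each passed the test on the lower side there. The windows are chr8:60505874-60506173 (plus strand) for Aadat, chr1:175631943-175632242 (plus) for Kmo, which starts inside the longer GENCODE gene, and chr7:127121980-127122279 (minus) for Qprt. Capitals mark the matches to 4 short motifs searched on both strands, an HNF1 site (GTTAAT), an HNF4 core (CAAAGTC), an AP-1 site (TGANTCA) and an aryl hydrocarbon receptor (AHR) core (GCGTG).
Aadat: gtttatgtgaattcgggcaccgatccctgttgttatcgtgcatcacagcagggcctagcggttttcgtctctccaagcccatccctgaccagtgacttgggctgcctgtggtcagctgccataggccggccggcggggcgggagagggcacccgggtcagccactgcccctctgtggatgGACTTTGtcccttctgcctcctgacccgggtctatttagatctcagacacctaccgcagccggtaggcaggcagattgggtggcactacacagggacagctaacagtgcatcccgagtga
Kmo: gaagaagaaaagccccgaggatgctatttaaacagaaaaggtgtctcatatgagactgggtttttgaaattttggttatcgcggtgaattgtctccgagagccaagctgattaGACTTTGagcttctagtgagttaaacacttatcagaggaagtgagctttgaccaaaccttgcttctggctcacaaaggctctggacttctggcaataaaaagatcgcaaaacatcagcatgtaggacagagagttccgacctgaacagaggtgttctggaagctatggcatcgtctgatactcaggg
Qprt: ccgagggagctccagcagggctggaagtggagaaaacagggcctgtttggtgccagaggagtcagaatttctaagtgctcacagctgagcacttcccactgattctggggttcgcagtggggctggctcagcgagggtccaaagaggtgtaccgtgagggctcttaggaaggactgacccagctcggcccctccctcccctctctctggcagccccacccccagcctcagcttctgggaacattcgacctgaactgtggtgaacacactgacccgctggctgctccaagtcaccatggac
The capitals in Aadat and Kmo are the HNF4 core on the opposite strand, and the Qprt window holds none of the 4. Among 32851 mouse windows of the same length, 7.1% held the HNF1 site, 4.44% the HNF4 core, 7.81% the AP-1 site and 32.4% the AHR core. No motif of this set was found in all 3 windows, and a match of letters is not a binding site.

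Haao (chr17:83831156-83847963, minus strand), the dioxygenase that follows Kynu, depended on 1 library. In LXA4 mice it was at 61.9, 82.1 and 453 CPM in diabetic libraries against 105, 118 and 140 CPM in nondiabetic libraries. The 453 CPM belong to diabetic replicate 6, the library rich in structural RNA, and the other 5 diabetic libraries, at 61.9 to 89.8 CPM, all lay below the nondiabetic range. The log2 change with LXA4 was 0.19 (95% interval -0.43 to 0.81, edgeR adjusted p = 0.673), and -0.64 (-0.93 to -0.34, adjusted p = 0.00131) without the 2 libraries. Over both compounds it was 0.01 (adjusted p = 0.968), and -0.40 (-0.61 to -0.20, adjusted p = 0.00182) without them. In benzo-LXA4 mice, with 75.7, 91.6 and 103 CPM in diabetic libraries against 81.6, 98.0 and 122 CPM in nondiabetic libraries, the change of -0.16 did not pass the test (adjusted p = 0.846). In vehicle mice the value was -0.55, with 47.2, 86.6 and 105 CPM in diabetic libraries against 99.0, 116 and 169 CPM in nondiabetic libraries, of which the highest is replicate 3, the other library rich in structural RNA.

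Nadsyn1 (chr7:143795584-143822849, minus strand), the NAD synthetase, had a log2 change of -0.13 over both compounds (95% interval -0.28 to 0.03, edgeR adjusted p = 0.203). Its values were 29.0, 34.7 and 39.5 CPM in diabetic LXA4 libraries against 35.4, 37.2 and 40.1 CPM in nondiabetic LXA4 libraries, and 29.3, 34.4 and 36.7 CPM in diabetic benzo-LXA4 libraries against 34.4, 36.9 and 41.1 CPM in nondiabetic benzo-LXA4 libraries. Both pairs overlapped. The value in vehicle mice was -0.30.

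Nampt (chr12:32819545-32853349, plus strand), the salvage enzyme, was the only member besides Kynu called higher in diabetic mice over both compounds. It was at 69.2, 134 and 173 CPM in diabetic LXA4 libraries against 91.5, 101 and 125 CPM in nondiabetic LXA4 libraries, and at 96.0, 128 and 161 CPM in diabetic benzo-LXA4 libraries against 98.9, 108 and 125 CPM in nondiabetic benzo-LXA4 libraries. The low LXA4 value was again replicate 6, and the other 5 libraries, from 128 CPM upwards, lay above the nondiabetic range. The log2 change over both compounds was 0.31 (95% interval 0.07 to 0.56, edgeR adjusted p = 0.0459), and 0.37 (0.16 to 0.58, adjusted p = 0.00481) without the 2 libraries rich in structural RNA. With all other libraries kept, the call was lost in 19 of the 36 fits that left out 1 library, with changes of 0.27 to 0.32 and adjusted p of 0.0521 to 0.0878. These libraries were replicates 1, 3, 4 and 5 of diabetic LXA4, 1, 2, 5 and 6 of diabetic benzo-LXA4, 3 of nondiabetic vehicle, 1, 2, 3, 4 and 6 of nondiabetic LXA4 and 1, 2, 4, 5 and 6 of nondiabetic benzo-LXA4. With LXA4 alone the change of 0.38 did not pass the test (adjusted p = 0.0898), but 0.50 did without the 2 libraries (adjusted p = 0.00953), 0.52 without diabetic LXA4 replicate 6 alone (adjusted p = 0.0123) and 0.39 without diabetic vehicle replicate 4 (adjusted p = 0.0423). With benzo-LXA4 the change was 0.24 (adjusted p = 0.506), and in vehicle mice the value was 0.18.

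**Figure D2:**
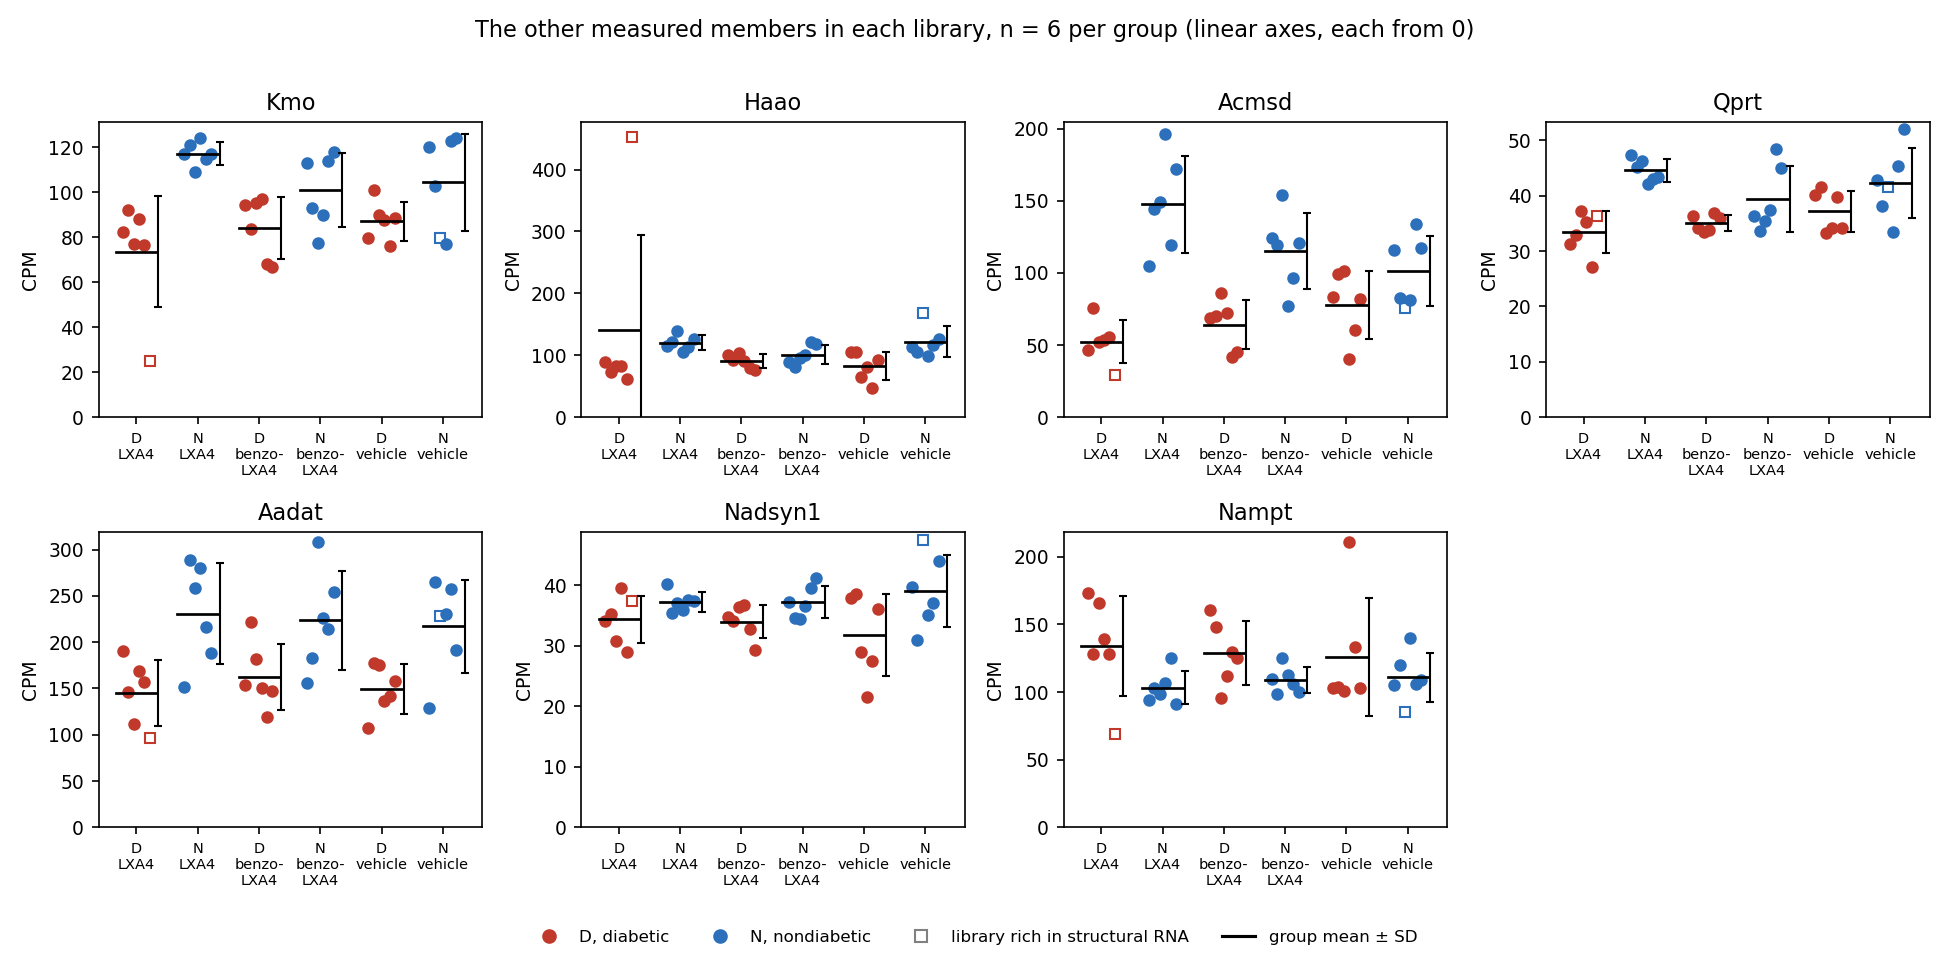
The 7 other measured members in CPM (y axes, linear, each from 0) in each library by group (x axes, D diabetic, N nondiabetic), with group means and SD, and open squares for the 2 libraries rich in structural RNA. Acmsd and Kmo in diabetic LXA4 mice lie wholly below nondiabetic LXA4 mice, and Haao in diabetic LXA4 replicate 6 stands apart at 453 CPM.

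Counted over both compounds, 6 of the 8 measured members passed the test, 2 higher (Kynu and Nampt) and 4 lower (Acmsd, Aadat, Kmo and Qprt), where 31% of all 15726 genes tested passed, 16.9% higher and 14.1% lower. The median log2 change of the members was -0.21, beside 0.03 over all genes. Without the 2 libraries rich in structural RNA, 7 of 8 passed, with Haao added on the lower side, where 43.7% of all genes did. With LXA4 alone 5 of 8 passed (background 27.7%), 1 higher (15.4%) and 4 lower (12.3%), and without the 2 libraries 7 of 8 did (36.9%), 2 higher (17.5%) and 5 lower (19.3%), with Nampt and Haao added. With benzo-LXA4 alone 1 of 8 passed, Acmsd on the lower side, where 4.06% of all genes did, 1.25% lower. Since the doses of LXA4 and benzo-LXA4 differed, the values of both compounds are given side by side and were not compared.

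**Figure D3:**
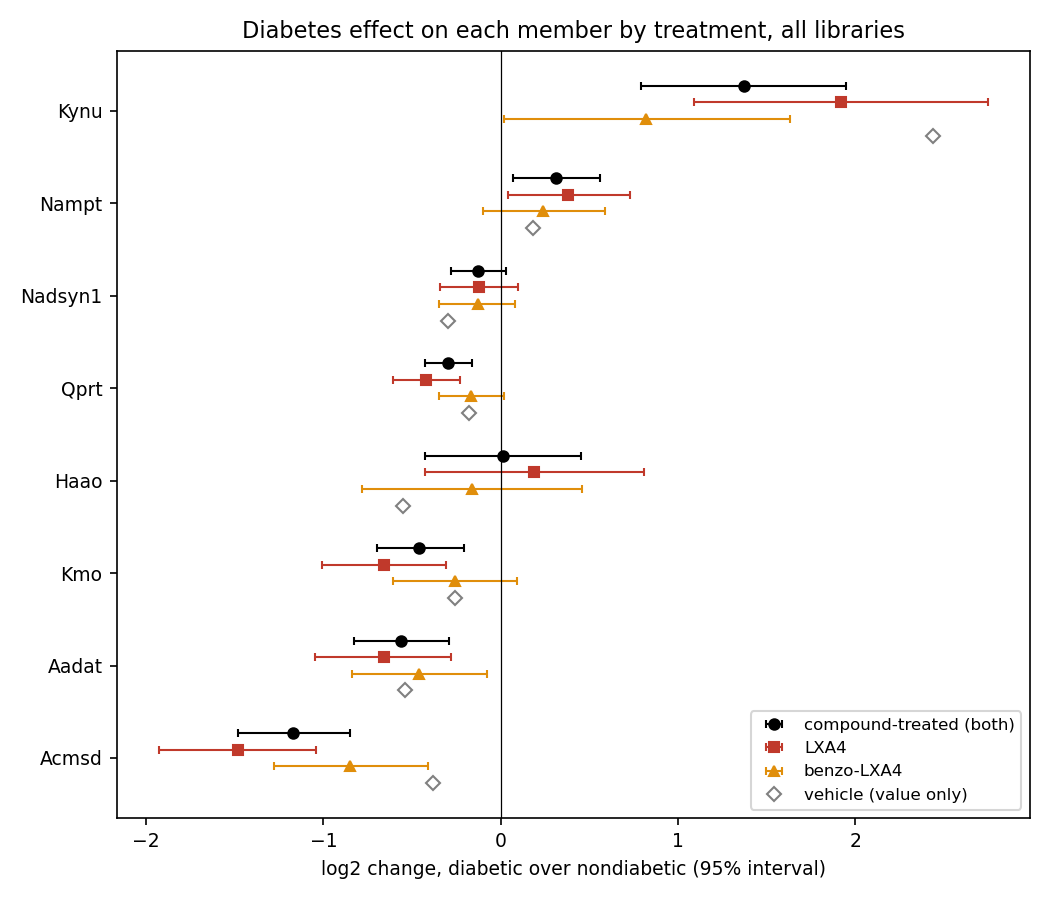
Log2 change of each member, diabetic over nondiabetic (x axis), by treatment, with 95% intervals from the edgeR fit of all 36 libraries for the compound groups and values only for vehicle. Kynu and Nampt lie above 0 over both compounds at 1.37 and 0.31, and Acmsd lies lowest at -1.17.

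**Figure D4:**
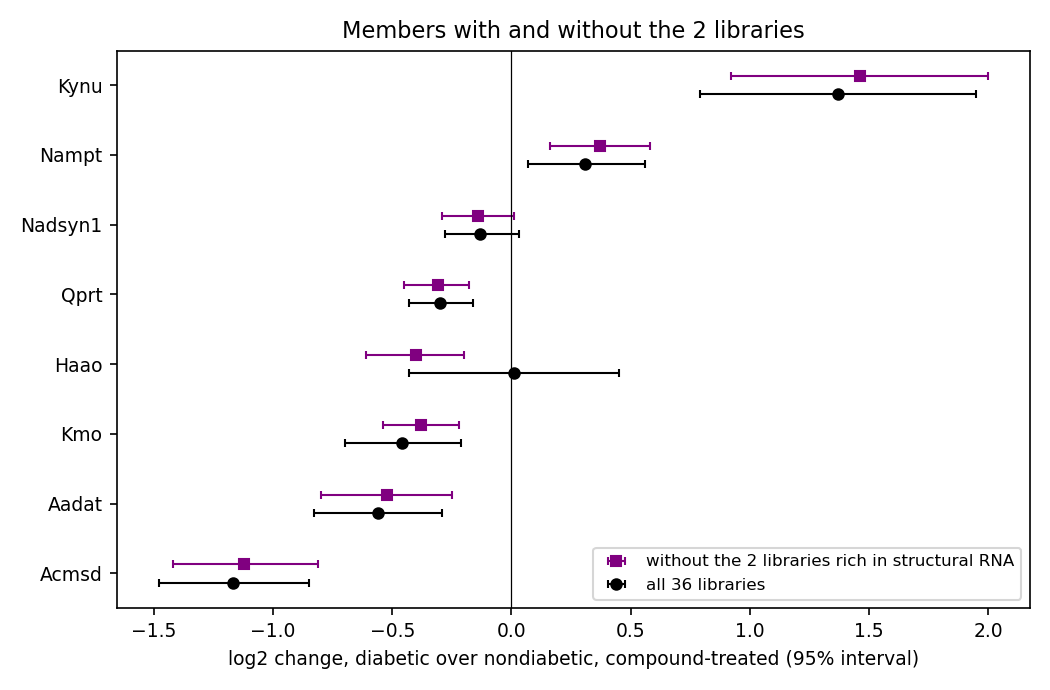
Log2 change of each member over both compounds, diabetic over nondiabetic (x axis, with 95% intervals), without the 2 libraries rich in structural RNA (squares) and with all 36 libraries (circles). Haao is at -0.40 without the 2 libraries and at 0.01 with them, and Kynu is at 1.46 and 1.37.

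Set against the rest of the pathway within each library, Kynu came closer to the other members in diabetic mice. The measure is the log2 CPM of Kynu minus the mean log2 CPM of the other 7 measured members, given as a description with no test. It averaged -0.26 ± 1.08 in diabetic and -2.88 ± 0.613 in nondiabetic vehicle mice, -0.86 ± 1.05 in diabetic and -3.05 ± 0.599 in nondiabetic LXA4 mice, and -1.22 ± 0.513 in diabetic and -2.36 ± 0.713 in nondiabetic benzo-LXA4 mice (SD, n = 6 each). The vehicle groups did not overlap, at -1.25 to 0.86 in diabetic against -3.32 to -2.07 in nondiabetic libraries. With LXA4 the diabetic range of -2.79 to 0.25 overlapped the nondiabetic range of -3.71 to -2.31, and without diabetic replicate 6 it ran from -1.05 to 0.25, with no overlap. With benzo-LXA4 the ranges of -1.88 to -0.44 in diabetic and -3.28 to -1.54 in nondiabetic libraries overlapped.

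**Figure D5:**
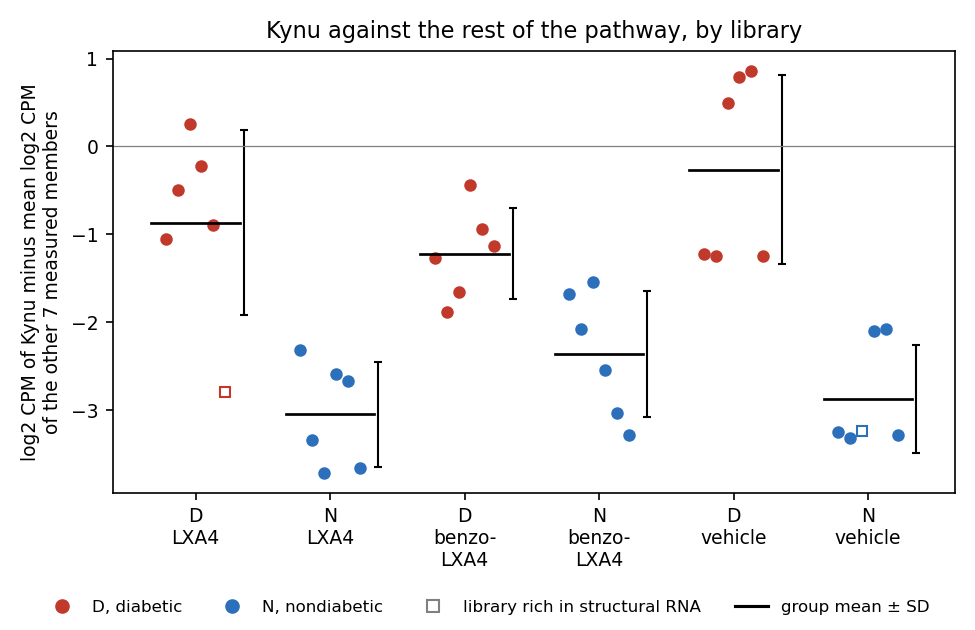
Log2 CPM of Kynu minus the mean log2 CPM of the other 7 measured members (y axis) in each library by group (x axis, D diabetic, N nondiabetic), with group mean and SD. Only 4 diabetic libraries lie above 0, and the highest nondiabetic library is at -1.54.

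The compounds were also set against vehicle within diabetic and within nondiabetic mice. These comparisons use vehicle libraries of the contrast that chose the genes, so the members' changes are descriptions and are not tested. Kynu had a log2 change of -0.63 with LXA4 and -1.14 with benzo-LXA4 in diabetic mice. In nondiabetic mice its change was -0.11 with LXA4 and 0.48 with benzo-LXA4. Acmsd had changes of -0.56 with LXA4 and -0.28 with benzo-LXA4 in diabetic mice, and 0.54 with LXA4 and 0.19 with benzo-LXA4 in nondiabetic mice. Haao had 0.73 with LXA4 in diabetic mice, a value that holds the 453 CPM of replicate 6, and -0.10 without the 2 libraries rich in structural RNA. Over all genes, the edgeR test called 0.356% for LXA4 in diabetic mice and 0% in each of the other 3 comparisons. At an unadjusted edgeR p under 0.05 there were 891 genes for benzo-LXA4 in diabetic mice, 967 for LXA4 and 452 for benzo-LXA4 in nondiabetic mice. Chance alone is expected to place a share of 0.05 of the 15726 genes tested under this limit. DESeq2 called 52, 3 and 2 genes in the same order of comparisons.

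The difference between the diabetes effect in compound mice and that in vehicle mice subtracts the very contrast that chose the genes, so for the members it is given as a description too. For Kynu, picked for its high value with vehicle, it was -0.52 with LXA4 and -1.61 with benzo-LXA4. For Acmsd it was -1.10 with LXA4 and -0.46 with benzo-LXA4. Over all genes this interaction with diabetes was called for 0.248% with LXA4.

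Other genes around the pathway were followed through lists, all counted over both compounds in diabetic against nondiabetic mice beside the background of 31% and an all-gene median of 0.03. With LXA4 alone, 1 to 3 genes of each of these pathway lists rose and 1 to 6 fell, where 15.4% of all genes rose and 12.3% fell. With benzo-LXA4 alone, at most 1 gene of each list passed, where 4.06% of all genes did. Of 10 measured genes of tryptophan entry and kynurenine side branches, 1 rose and 3 fell (median -0.07). Kyat1, another aminotransferase of kynurenic acid synthesis, rose by 0.38 (edgeR adjusted p = 0.000876), with 132 ± 25.5 CPM in diabetic and 101 ± 15.1 CPM in nondiabetic libraries (SD, n = 12 each). Aldh8a1, the dehydrogenase downstream of Acmsd, had a change of -0.39 (adjusted p = 0.00207), and Gcdh and Acat1, which act further down the breakdown to acetyl-CoA, had -0.33 and -0.36. The ring-opening dioxygenases Tdo2 and Ido1 were not analysed here, and Ido2 had 0.02 (adjusted p = 0.920).

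Of 12 measured genes of tryptophan transport and other tryptophan routes, 1 rose and 5 fell (median -0.21), and 3 of the 6 calls were left when genes under a mean of 5 CPM were dropped. Slc16a10, an aromatic amino acid transporter, was at 81.7 ± 10.4 CPM in diabetic and 120 ± 23.2 CPM in nondiabetic libraries, a change of -0.56 (edgeR adjusted p = 0.000186). The large neutral amino acid transporters Slc7a8 and Slc7a5 moved in opposite directions, at -0.45 (adjusted p = 0.00436) and 0.70 (adjusted p = 0.011), and their shared heavy chain Slc3a2 had -0.36 (adjusted p = 0.014). Ddc, the aromatic amino acid decarboxylase, had -0.26 (adjusted p = 0.0402), a call kept in 23 of 36 fits that left out 1 library (adjusted p up to 0.0746). Its diabetes change differed in sign between treatments. It was -0.57 with LXA4 (adjusted p = 0.00388), 0.04 with benzo-LXA4 (adjusted p = 0.933) and 0.48 with vehicle (adjusted p = 0.0359). Ddc also passed the interaction of LXA4 with diabetes, at -1.05 (adjusted p = 0.0212, and 0.0512 without diabetic vehicle replicate 3). With LXA4 against vehicle in diabetic mice it had -0.60 (adjusted p = 0.0472), which passed in 10 of the 36 fits (adjusted p up to 0.126). Slc6a18, an apical neutral amino acid transporter, had -0.23 over both compounds (edgeR adjusted p = 0.0813). With LXA4 alone it had -0.44 (adjusted p = 0.0217), a call kept in 34 of 36 fits that left out 1 library (adjusted p up to 0.0567).

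Of 16 measured genes of NAD salvage, nicotinic acid and riboside routes beyond the members, 1 rose and 5 fell (median -0.03). Nadk, which phosphorylates NAD to NADP, was at 112 ± 5.61 CPM in diabetic and 142 ± 13.5 CPM in nondiabetic libraries, a change of -0.33 (edgeR adjusted p = 2.63e-05), and all 12 diabetic libraries lay below the nondiabetic mean. Slc25a51, the mitochondrial NAD carrier, had -0.27, the purine nucleoside phosphorylase Pnp -0.49, the ectonucleotidase Nt5e -0.61 and the NADH hydrolase Nudt12 -0.32. Slc12a8, described in mice as a transporter of nicotinamide mononucleotide, had 0.46. Naprt, the entry enzyme for nicotinic acid, had 0.06 (adjusted p = 0.818).

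Of 19 NAD-consuming enzymes, 4 rose and 3 fell (median 0.13). The ADP-ribosyltransferases Parp10, Parp12 and Parp9 rose by 0.61, 0.51 and 0.30, and Parp10, at 32.2 ± 6.92 CPM in diabetic and 20.8 ± 1.87 CPM in nondiabetic libraries, did not overlap between the groups. Tankyrase Tnks2 had -0.20, and the deacylases Sirt1 and Sirt2 had -0.16 and -0.15. Among 4 measured vitamin B6 enzymes, Pdxk, the kinase that makes the cofactor of Kynu and Aadat, rose by 0.42 (edgeR adjusted p = 0.000415) and Alpl, a phosphatase that removes the phosphate, had -0.47 (adjusted p = 0.00261). In a list of AHR, a receptor that binds kynurenine and kynurenic acid, and its targets, 6 genes were measured, Ahr itself among them, of which 0 rose and 1 fell (median 0.13). That gene was Tiparp at -0.31 (adjusted p = 0.00463). Without the 2 libraries rich in structural RNA 3 of the 6 passed, where 43.7% of all genes did. Nqo1 (0.54, adjusted p = 0.0132) and Ahrr (1.37, adjusted p = 0.0441) were added on the higher side, against 0.47 (adjusted p = 0.0601) and 1.31 (adjusted p = 0.0721) with the 2 libraries. The count was 2 with DESeq2 and 1 to 3 with single libraries left out. In vehicle mice Nqo1 had 1.12 (edgeR adjusted p = 0.0122) and Cyp1b1 0.74 (adjusted p = 0.0146), and no other gene of this list passed. Nqo1 was at 62.0 ± 39.6 CPM in diabetic and 28.4 ± 6.0 CPM in nondiabetic vehicle libraries (SD, n = 6 each). The vehicle contrast is also the one that chose the members. It called 441 to 1852 of all genes with single libraries left out, and its count with all libraries is given in the last section. The median of the 6 genes with vehicle was 0.14, beside -0.01 over all genes. Ahrr, the AHR repressor, had 3.01 with LXA4 (adjusted p = 0.00598), a value of 0.59 without diabetic LXA4 replicate 5 (adjusted p = 0.551), and -0.38 with benzo-LXA4 (adjusted p = 0.862), at a mean of 0.71 ± 1.54 CPM in diabetic and 0.296 ± 0.277 CPM in nondiabetic libraries over both compounds.

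Among cell markers counted in the same way, 10 of 20 proximal tubule markers fell and 0 rose (median -0.33), 5 of 10 injury markers rose (median 0.55), 3 of 14 macrophage and dendritic cell markers rose and 1 fell (median 0.22), and 3 of 5 T, NK and B cell markers rose (median 0.52). Of the other lists, 1 of 10 markers of loop of Henle, distal tubule and collecting duct and 1 of 6 podocyte markers rose, and 0 of 6 endothelial (median 0.03), 0 of 5 urothelium (median 0.72) and 0 of 5 liver markers (median -0.61) passed. With LXA4 alone 2 of 5 urothelium markers rose (median 2.74), where 15.4% of all genes did. Without the 2 libraries rich in structural RNA 3 of 5 urothelium markers rose with LXA4 (median 2.72), where 17.5% of all genes did. The urothelium sums were 1.19 to 30.9 CPM in diabetic and 0.898 to 6.57 CPM in nondiabetic libraries. With LXA4 and all libraries kept, 1 of 5 liver markers fell (median -0.98), where 12.3% of all genes did. The liver sums were 25.9 to 63.5 CPM in diabetic libraries (up to 42.7 CPM without replicate 6) and 52.1 to 87.6 CPM in nondiabetic libraries. Over both compounds and without the 2 libraries rich in structural RNA, 43.7% of all genes passed in either direction. In that fit 14 of 20 proximal tubule and 2 of 5 liver markers fell, and 7 of 10 injury, 4 of 6 podocyte and 4 of 5 T, NK and B cell markers rose. Of 14 macrophage and dendritic cell markers 2 rose and 1 fell there. Of 10 markers of loop of Henle, distal tubule and collecting duct 2 rose and 1 fell. Hnf4a, a proximal tubule transcription factor gene, had -0.31 (edgeR adjusted p = 0.00123). The part of the tubule, urothelium and liver markers in the values of the members was not tested.

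The genes whose log2 CPM followed Kynu most closely over the 36 libraries, among 14022 genes with a mean of at least 1 CPM, were Aldh1a1 (Pearson r 0.891), Sntg1 (0.888), Rasa3 (0.868), B3galt1 (0.868) and Antxr1 (0.868). These are descriptions, since the libraries share groups and depth. Aldh1a1, a retinaldehyde dehydrogenase, was at 16.7 ± 11.1 CPM in diabetic and 5.17 ± 0.745 CPM in nondiabetic vehicle mice (SD, n = 6 each). After each group's mean was subtracted the first 5 were Papss2 (0.809), Cyp1b1 (0.807), B3galt1 (0.805), Csmd1 (0.801) and Spp1 (0.797). Without the 2 libraries rich in structural RNA the first 5 were Hfe (0.898), Sntg1 (0.896), B3galt1 (0.894), Aldh1a1 (0.885) and Akr1c13 (0.883), and with group means subtracted BC089597 (0.905), Hfe (0.826), Cbr1 (0.801), Cyp2d22 (0.771) and Msr1 (0.754). Of the pathway members, Nampt followed Kynu most closely (0.599) and Haao ran most against it (-0.695), or 0.548 and -0.802 without the 2 libraries. Cdkn1a, a cell cycle inhibitor that rose in diabetic mice, had an r of 0.704 with Kynu over all libraries and 0.04 after group means were subtracted.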

How the data were processed

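Ribosomal RNA was removed from 200 ng of kidney cortex RNA and strand-specific libraries were prepared, per the labels' protocols. The authors deposited 1 table of unnormalized counts for 36 libraries, made with bcl2fastq 2.17.1.14, STAR and featureCounts on GRCm38, per the submitters' processing notes. Neither the versions of STAR and featureCounts nor the annotation and strand setting are stated there. The lowest gene total in the table was 370 counts. All columns were matched to labels, and no pair of libraries was identical (highest r 0.9938).

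Counts were tested with the edgeR 4.0.16 quasi-likelihood F test in R 4.3.3 (TMM, default low-count filter, 15726 genes), with 6 group means in 1 fit of 36 libraries, Benjamini-Hochberg adjustment over all genes tested and a threshold of 0.05. The script was tested on simulated counts. RPKM uses exon lengths of GENCODE M21 (15697 genes matched), and log2 CPM a prior count of 2. Alternatives were DESeq2 1.42.0 and its size factors, no count filter, a mean of at least 5 CPM, only the groups compared, a replicate block, leaving out the 2 libraries rich in structural RNA, and leaving out each library. The members, lists and tests were chosen with earlier results of these data known, so the members' values in contrasts with vehicle groups are given without a test. Beyond the members, genes were named as follows: up to 6 per pathway list that passed in a compound-treated, compound or interaction comparison, those most like Kynu, and Cdkn1a. Ido2, Naprt and Hnf4a were named after their values were seen. Sequences come from RefSeq (GRCm38.p6), and 8 of the 9 members had a promoter window. The promoter of Acmsd is not reported here.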

Additional observations from a re-analysis of the deposited data

Results flagged for a closer look

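In each group of 6 libraries, the gap between an extreme value and its nearest neighbour was set against the group's range, in 48 tests on the level of a member and 6 on Kynu relative to the other members. Of these 54 tests, 4 passed Dixon's 95% limit of 0.625, all on the level of a member, where chance alone passes about 1 in 20. In diabetic LXA4 replicate 6, the library with 56.9% structural RNA, Haao was the highest of its group at 453 CPM and Kmo the lowest at 25.0 CPM. In diabetic vehicle replicate 4, Nampt was the highest at 211 CPM, against 101 to 133 CPM in the other 5 libraries. In diabetic benzo-LXA4 replicate 4, Kynu was the highest at 55.2 CPM, against 21.6 to 33.2 CPM in the other 5.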

How the results depend on the processing

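The calls of Kynu, Acmsd, Aadat, Kmo and Qprt over both compounds held in each alternative run. Haao reversed, to -0.08 with the replicate block and -0.40 without the 2 libraries rich in structural RNA over both compounds (single libraries left out, -0.39 to 0.09), and to -0.02 and -0.64 with LXA4 (-0.62 to 0.35). Haao has no adjusted p from DESeq2. Kynu with LXA4 in nondiabetic mice, -0.11, ran from -0.23 to 0.13 with single libraries left out. The cause of these shifts was not tested.

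Counts of all genes called changed more. Between diabetic and nondiabetic mice with LXA4 there were 4353, and 2338 with only the groups compared. With benzo-LXA4 there were 638, and 1066 with DESeq2, 313 at a mean of 5 CPM, 1875 with only the groups compared and 1906 without the 2 libraries. With vehicle there were 881, and 1329, 442, 342 and 1399 in the same order. For LXA4 against vehicle in diabetic mice there were 56, and 231 with DESeq2, 1 with only the groups compared, 28 with the replicate block and 93 without the 2 libraries. For benzo-LXA4 in diabetic mice there were 0, and 52, 3 and 48 with DESeq2, only the groups compared and without the 2 libraries. In nondiabetic mice there were 0 for each compound, and 3 (LXA4) and 2 (benzo-LXA4) with DESeq2. For the interaction of LXA4 there were 39, and 266 with DESeq2, 80 at a mean of 5 CPM, 0 with only the groups compared, 9 with the block and 129 without the 2 libraries. Leaving out single libraries gave 389 to 1302 for benzo-LXA4, 441 to 1852 for vehicle, 0 to 88 for LXA4 and 0 to 8 for benzo-LXA4 against vehicle in diabetic mice, and 0 to 106 for the interaction of LXA4. Of the pathway lists over both compounds, calls moved from 6 to 3 for tryptophan transport and other routes at a mean of 5 CPM, and for AHR and its targets from 1 to 2 with DESeq2, at a mean of 5 CPM or with only the groups compared and to 3 without the 2 libraries (1 to 3 with single libraries left out).

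Replicate numbers did not pair the samples: same-numbered libraries had a median correlation of -0.00349 of their deviations from group means (90 pairs, -0.417 to 0.465), different-numbered ones -0.00307, and 4 libraries correlated best with their own number. In diabetic LXA4 replicate 6, with 8896193 counts in all and 56.9% structural RNA, Kynu rests on 37 counts. The cause of its low level there was not tested.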
